A study of Mus musculus with 17 samples.

Results

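The Fc receptor genes are 7 mouse genes whose products bind the constant (Fc) part of antibodies or carry the signal of receptors that do: Fcgr1, Fcgr2b, Fcgr3, Fcgr4, Fcer1g, Fcer1a and Fcgrt. They are listed by symbol. All 7 were found among the 18193 genes that the array's annotation names with a single symbol, and they are read by 12 probe sets, sets of short probes whose summary is the measured value. For 6 of the 7, the probe set with the highest mean lay above the median of its array in all 17 arrays, and these 6 were tested among the 12696 genes that passed the filter on dim probe sets. Fcer1a lay above the median in 0 of 17 arrays and did not pass.

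Whole blood was taken from female C57BL/6JJcl mice, an inbred strain, irradiated at 8 weeks of age with a single total-body exposure to X-rays and killed 24 h later. The groups were 5 controls at 0 Gy and 4 mice each at 0.5, 1.0 and 3.0 Gy, with no other treatment and 1 array per mouse. Every level below is a log2 value after RMA (robust multi-array average), so a difference of 1 is a change of 2-fold. Levels are given as mean ± SD (n = 5 for control, n = 4 for each dose), and changes as the difference of group means ± standard error (SE) from limma, with p-values adjusted over the 12696 genes (Benjamini-Hochberg) and a call made under 0.05. The 3 comparisons with control share the same 5 control arrays.

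Receptors for the Fc part of IgG link antibodies to the cells that act on them. Fcgr1, Fcgr3 and Fcgr4 encode activating receptors of myeloid cells, and Fcgr3 also that of NK cells. None of them signals alone: each pairs with the Fc receptor gamma chain, encoded by Fcer1g, whose activation motif recruits the kinase Syk and starts phagocytosis, degranulation and cytokine release. Fcgr2b encodes the inhibitory receptor, which recruits the phosphatase SHIP (gene Inpp5d) and is the Fc gamma receptor of B cells, and myeloid cells carry it too. Fcer1a encodes the IgE-binding chain of the high-affinity IgE receptor of basophils and mast cells, which also needs the gamma chain. Fcgrt encodes the neonatal Fc receptor, a relative of MHC class I that pairs with beta-2 microglobulin and returns IgG and albumin from endosomes to the blood.

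Of marker genes on the array, 13 of 13 mature neutrophil, 18 of 18 monocyte and 14 of 14 B cell genes passed the filter. So did 13 of 13 T cell and 14 of 14 platelet genes, 10 of 11 NK cell genes and 6 of 7 red cell genes. Of dendritic cell genes 6 of 7 passed, of basophil and mast cell genes 5 of 10, and of eosinophil genes 1 of 5. Over all genes 12696 of 18193 passed. Of 10 p53 target genes tested, which irradiation is known to induce, 2, 6 and 4 rose at 0.5, 1.0 and 3.0 Gy and 0 fell. Array medians lay between 3.47 and 3.57. The 3 control probe sets for 18S ribosomal RNA had a mean of 10.52 ± 0.49 in controls and 10.68 ± 0.14 at 3.0 Gy, but of 12.69 ± 0.77 at 0.5 Gy and 13.28 ± 0.28 at 1.0 Gy. All arrays of the lower doses lay above all controls on this measure, so at 0.5 and 1.0 Gy dose and 18S level cannot be told apart. With the 18S level as a covariate in the fit, 557 and 606 of 12696 genes were called at 0.5 and 1.0 Gy, against 1300 and 2195 without it, and of the p53 target genes 0 were called at either dose (medians 0.24 and 0.39). Values from that fit, called the 18S fit below, are given beside calls at the lower doses.

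The gamma chain rose at every dose, and the receptors it serves did not all rise with it. At 3.0 Gy Fcer1g and the activating receptor Fcgr4 rose, the inhibitory receptor Fcgr2b and the neonatal receptor Fcgrt fell, and Fcgr3 and Fcgr1 did not pass the test. Of the 6 members tested, 1 rose and 0 fell at 0.5 Gy, where 5.24% of all genes tested were called higher and 5% lower. At 1.0 Gy 1 rose (Fcer1g) and 1 fell (Fcgrt), against 8.8% higher and 8.49% lower over all genes. At 3.0 Gy 2 rose and 2 fell, against 20% higher and 29.2% lower over all genes. With so many genes called at 3.0 Gy, 4 of 6 members is a count set against a background of 49.1%. The median change of the 6 members was -0.24, 0.01 and 0.28 at the 3 doses, where that of all genes was -0.02, -0.04 and 0.04.

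**Figure D1:**
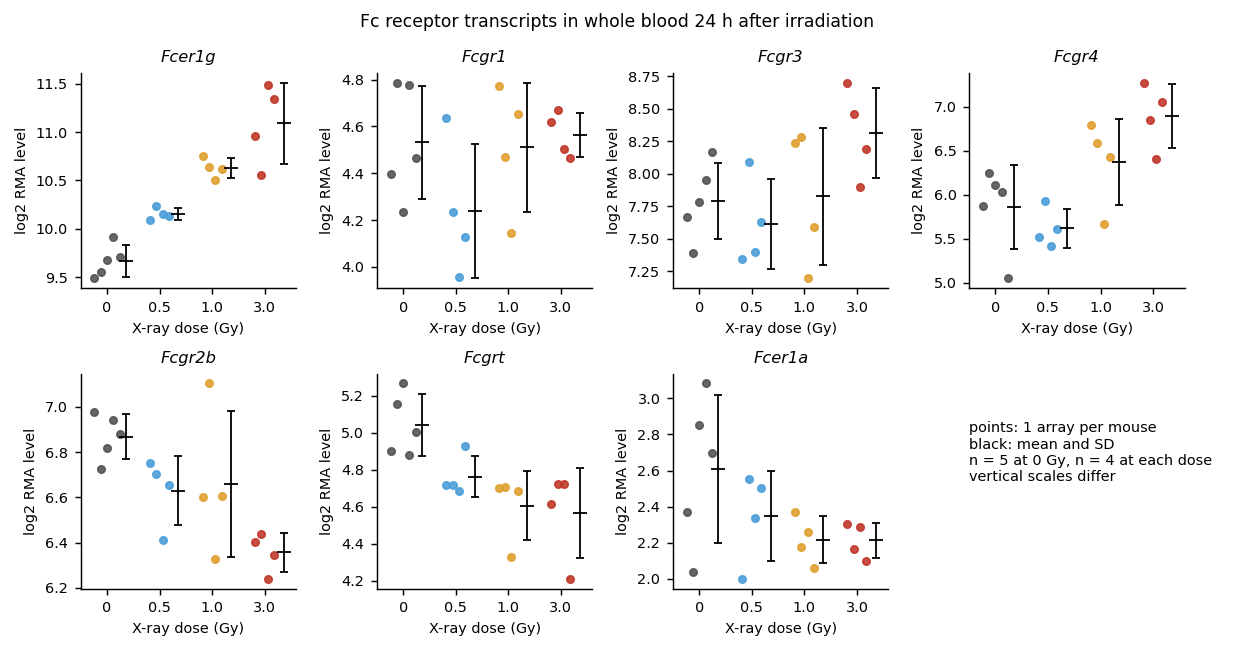
Log2 RMA level of each Fc receptor gene (vertical axis, a different range in each panel) by X-ray dose in Gy; each point is the array of 1 mouse, and black marks are mean and SD. Fcer1g climbs from 9.67 in controls to 11.09 at 3.0 Gy, Fcgr4 is highest and Fcgr2b lowest at 3.0 Gy, and Fcer1a stays below 3.1 in all arrays.

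Fcer1g, the signalling chain shared by the activating receptors, had the largest rise against control of the tested members at each dose. The difference between members was not tested. Its level was 9.49, 9.55, 9.68, 9.91 and 9.71 in the 5 controls and 10.09, 10.23, 10.15 and 10.13 in the 4 mice at 0.5 Gy. It was 10.75, 10.64, 10.50 and 10.62 at 1.0 Gy, and 10.96, 10.56, 11.49 and 11.34 at 3.0 Gy. Every irradiated mouse lay above every control, and every mouse at 1.0 Gy above every mouse at 0.5 Gy. Of the 3.0 Gy mice, replicate 2, at 10.56, lay within the range of the 1.0 Gy group, and the other 3 lay above it. Against control the change was 0.48 ± 0.15 at 0.5 Gy (adjusted p = 0.0416, limma), 0.96 ± 0.15 at 1.0 Gy (adjusted p = 9.74e-05) and 1.42 ± 0.15 at 3.0 Gy (adjusted p = 3.44e-07), or 2.67-fold. Mice at 3.0 Gy also exceeded those at 1.0 Gy by 0.46 ± 0.16 (adjusted p = 0.0269) and those at 0.5 Gy by 0.93 ± 0.16 (adjusted p = 0.000185). The step of 0.47 ± 0.16 from 0.5 to 1.0 Gy did not pass after adjustment (adjusted p = 0.516), in a comparison where 2 of 12696 genes did. In bulk blood a higher level can come from more of the cells that carry a transcript or from more of it per cell, and these cannot be told apart.

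The Fcer1g calls differ in how much they rest on single mice. The call at 3.0 Gy held in all 17 fits that left out 1 array, with changes between 1.28 and 1.60. The call at 0.5 Gy lay close to the threshold: it ended in 10 of those 17 fits (without control replicate 1, 2, 3 or 5, any 0.5 Gy array, or 1.0 Gy replicate 2 or 4), where the change was between 0.44 and 0.50 and the adjusted p between 0.0508 and 0.1004. The call of 3.0 over 1.0 Gy ended without 1.0 Gy replicate 2, 3 or 4 or 3.0 Gy replicate 3 or 4, with changes of 0.33 to 0.46 and adjusted p between 0.0526 and 0.106. Fitted with the 18S level as a covariate, they were 0.47 (adjusted p = 0.534) at 0.5 Gy and 0.94 (adjusted p = 0.220) at 1.0 Gy, close to the values without it but with larger errors.

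Fcgr4, an activating receptor for IgG on neutrophils and nonclassical monocytes, rose at the highest dose. Its level was 5.87, 6.24, 6.11, 6.03 and 5.05 in controls, with control replicate 5 the lowest of all 17 mice. It was 5.52, 5.93, 5.42 and 5.61 at 0.5 Gy, 6.80, 6.59, 5.67 and 6.43 at 1.0 Gy, and 7.27, 6.85, 6.41 and 7.06 at 3.0 Gy. All mice at 3.0 Gy lay above all controls, and 3 of the 4 at 1.0 Gy did. The change was -0.24 ± 0.24 at 0.5 Gy (adjusted p = 0.646, limma), 0.51 ± 0.24 at 1.0 Gy (adjusted p = 0.167) and 1.04 ± 0.24 at 3.0 Gy (adjusted p = 0.00147), or 2.05-fold. Without 1.0 Gy replicate 3, the low array of its group, the change at 1.0 Gy was 0.75 and passed (adjusted p = 0.0299). Mice at 3.0 Gy exceeded those at 0.5 Gy by 1.28 ± 0.25 (adjusted p = 0.000833), again without overlap. With the 18S level in the fit that difference was 0.78 (adjusted p = 0.440).

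Fcgr3, the activating receptor with low affinity for IgG, moved the same way at 3.0 Gy but by less. Controls had 7.66, 7.39, 7.78, 7.95 and 8.17, and mice at 0.5 Gy had 7.34, 8.09, 7.39 and 7.62. Levels were 8.24, 8.28, 7.19 and 7.59 at 1.0 Gy and 8.70, 8.46, 7.90 and 8.19 at 3.0 Gy. The 4 groups overlapped, and the 1.0 Gy mice split into a higher and a lower pair. The change at 3.0 Gy was 0.52 ± 0.23 (adjusted p = 0.0621, limma), which did not pass, and at the lower doses it was -0.18 and 0.04. It passed without control replicate 5 (0.62, adjusted p = 0.0361), without 1.0 Gy replicate 3, an array of neither group compared (0.52, adjusted p = 0.0372), and without 3.0 Gy replicate 3 (0.66, adjusted p = 0.0318). It also passed after a repeated quantile normalization (0.57, adjusted p = 0.0261) and with only the control and 3.0 Gy arrays in the fit (adjusted p = 0.0352). Mice at 3.0 Gy exceeded those at 0.5 Gy by 0.70 ± 0.24 (adjusted p = 0.0298). That call ended without 0.5 Gy replicate 1, 3 or 4 or 3.0 Gy replicate 1 or 2 (0.57 to 0.70, adjusted p 0.0557 to 0.0977), with arrays centred on their medians (0.66, adjusted p = 0.0508) and with 18S as a covariate (1.37, adjusted p = 0.129).

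Fcgr1, the high-affinity receptor for IgG, is a textbook target of interferon gamma and stayed near its control level. It was dim: 4.40, 4.79, 4.24, 4.78 and 4.46 in controls, 4.63, 4.23, 3.96 and 4.13 at 0.5 Gy, 4.77, 4.47, 4.14 and 4.65 at 1.0 Gy, and 4.62, 4.67, 4.50 and 4.47 at 3.0 Gy. All dose groups overlapped the controls. The change at 3.0 Gy was 0.03 ± 0.15 (adjusted p = 0.875, limma) with a 95% interval from -0.29 to 0.35. That interval lies below the change measured for Fcgr4. Changes of dim genes are understated after RMA, so it does not compare the rise of the transcripts themselves. The changes at 0.5 and 1.0 Gy were -0.29 ± 0.15 (adjusted p = 0.278) and -0.02 ± 0.15 (adjusted p = 0.947). A second, dimmer probe set of Fcgr1 (1417876_at) gave -0.06, 0.58 ± 0.21 (adjusted p = 0.0728) and 0.26 ± 0.21 (adjusted p = 0.333), so that the probe sets differ most at 1.0 Gy. Of 19 interferon-response genes tested in the same arrays, 6, 12 and 11 rose and 1, 1 and 2 fell at the 3 doses, with medians of 0.35, 0.98 and 0.87. By the 18S fit 1 and 5 rose and 0 fell at 0.5 and 1.0 Gy. Ifit3, an antiviral protein gene, rose by 3.17 ± 0.22 at 3.0 Gy (adjusted p = 9.8e-09). The genes of the list that rose at 3.0 Gy include others of the Ifit and Oas families. Which interferon the list reads was not tested, so it is no measure of interferon gamma beside Fcgr1.

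**Figure D2:**
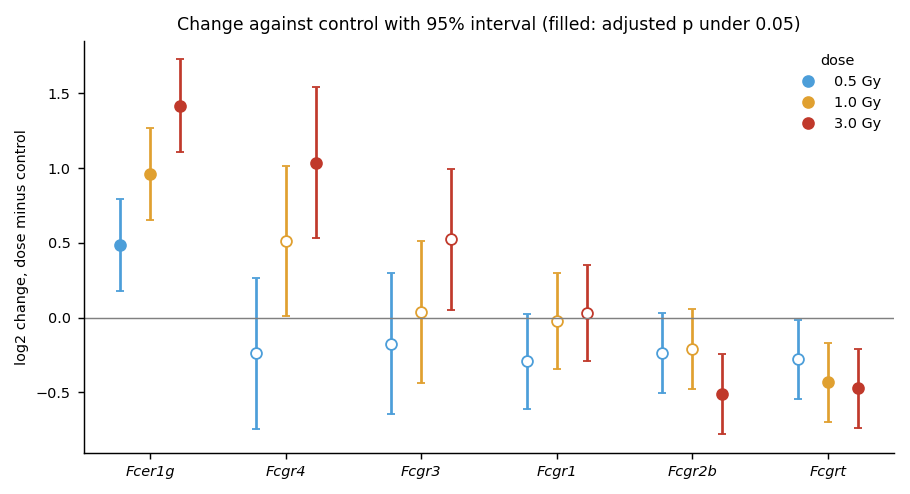
Log2 change of the 6 tested members against control at each dose (vertical axis; colours are doses, bars are 95% intervals, filled points have an adjusted p under 0.05). Fcer1g is filled at all doses, Fcgr4 and Fcgr2b only at 3.0 Gy, in opposite directions, and Fcgrt at 1.0 and 3.0 Gy.

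Fcgr2b, the inhibitory receptor, fell at 3.0 Gy. On the probe set used (1435476_a_at) controls had 6.98, 6.73, 6.82, 6.94 and 6.88. Levels were 6.75, 6.70, 6.41 and 6.66 at 0.5 Gy, 6.60, 7.10, 6.33 and 6.61 at 1.0 Gy, and 6.40, 6.44, 6.24 and 6.35 at 3.0 Gy. All mice at 3.0 Gy lay below all controls, while 1.0 Gy replicate 2 had the highest level of all 17. The change at 3.0 Gy was -0.51 ± 0.13 (adjusted p = 0.00271, limma), or 1.43-fold lower, and at 0.5 and 1.0 Gy it was -0.24 ± 0.13 (adjusted p = 0.297) and -0.21 ± 0.13 (adjusted p = 0.302). Without 1.0 Gy replicate 2 the change at 1.0 Gy was -0.36 and passed (adjusted p = 0.0377). In the 18S fit, with all arrays, it was -0.31 (adjusted p = 0.754). After a repeated quantile normalization the change at 3.0 Gy was smaller, -0.29, and still passed (adjusted p = 0.0409).

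The size of the fall depended on the probe set more than on any other choice. By the mean over 17 arrays, the probe set used led 1435477_s_at narrowly, 6.6431 against 6.6382. Of the 4 that passed the filter, the probe set used had the smallest fall at 3.0 Gy. At 3.0 Gy the probe set 1435477_s_at went from 7.36 ± 0.25 to 5.35 ± 0.69, a change of -2.01 ± 0.28 (adjusted p = 7.99e-06 over 20445 probe sets, limma), or 4.03-fold lower. The probe sets 1451941_a_at and 1455332_x_at changed by -0.96 ± 0.24 (adjusted p = 0.00293) and -0.79 ± 0.17 (adjusted p = 0.00069). In all 4 of these probe sets, every mouse at 3.0 Gy lay below every control. The fifth, 1447622_at, was above its array's median in 0 of 17 arrays and moved the other way, by 0.32 ± 0.11 (adjusted p = 0.0240 over 34945 probe sets without a filter), from 1.93 ± 0.15 to 2.25 ± 0.14. Probe sets marked _s_at or _x_at can bind several related transcripts and _a_at several transcripts of a gene, and Fcgr2b and Fcgr3 are close relatives in their outer domains. A share of Fcgr3 signal in an Fcgr2b probe set, or the reverse, is therefore uncertain here.

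**Figure D3:**
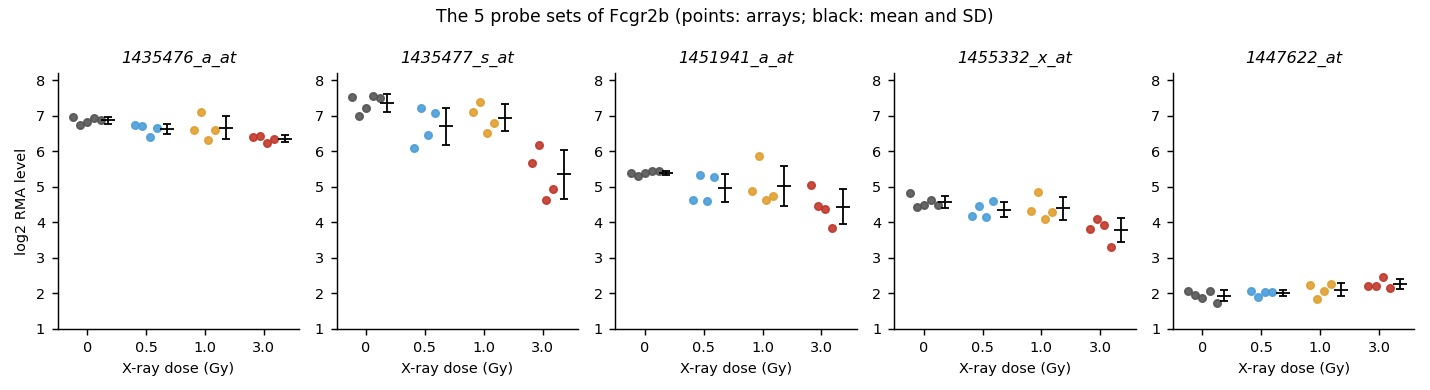
Log2 RMA level of the 5 probe sets of Fcgr2b by X-ray dose in Gy, on a common vertical scale; points are arrays, black marks are mean and SD. In 4 of them the 3.0 Gy arrays lie below all controls, most of all in 1435477_s_at, and 1447622_at stays near 2 at all doses.

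Since activating and inhibitory receptors share a ligand, the level of each activating receptor minus that of Fcgr2b was taken within each array, and its group means were compared. The value itself depends on the probe sets, so that only its change between groups is read. All of these differences share the Fcgr2b level and the control arrays, so their tests are not independent. Fcgr2b is also the Fc gamma receptor of B cells, so in bulk blood the levels subtracted can come from different cells. Fcgr4 minus Fcgr2b was higher at 3.0 Gy than in controls by 1.55 (exact permutation test, two-sided, p = 0.00794, adjusted p = 0.0357 over 9 comparisons), Fcgr3 minus Fcgr2b by 1.03 (exact p = 0.00794, adjusted p = 0.0357) and Fcgr1 minus Fcgr2b by 0.54 (exact p = 0.0159, adjusted p = 0.0476). The smallest p that these group sizes allow is 0.00794. These changes amount to 2.93-fold, 2.05-fold and 1.46-fold, and in each of them 4 of 4 mice lay above every control. For Fcgr4 the values ran from -1.83 to -0.48 in controls and from 0.17 to 0.87 at 3.0 Gy. For Fcgr3 they ran from 0.66 to 1.29 in controls and from 1.66 to 2.30 at 3.0 Gy. For Fcgr1 they ran from -2.58 to -1.94 in controls and from -1.88 to -1.74 at 3.0 Gy, a gap of small size between groups. On its own Fcgr1 changed by 0.03 at 3.0 Gy and Fcgr2b by -0.51, so most of the Fcgr1 difference is the fall of Fcgr2b.

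At the lower doses 0 of the 6 differences passed. At 1.0 Gy Fcgr4 minus Fcgr2b was 0.72 higher than control (exact p = 0.0476, adjusted p = 0.107), Fcgr3 minus Fcgr2b 0.25 (exact p = 0.270, adjusted p = 0.486) and Fcgr1 minus Fcgr2b 0.19 (exact p = 0.405, adjusted p = 0.607). At 0.5 Gy the changes were -0.00, 0.06 and -0.05. Measured against the probe set 1435477_s_at, the 3.0 Gy differences became 3.05, 2.53 and 2.04 for Fcgr4, Fcgr3 and Fcgr1, and Fcgr3 minus Fcgr2b at 1.0 Gy became 0.45 and passed (exact permutation test, adjusted p = 0.0357). After a repeated quantile normalization Fcgr1 minus Fcgr2b at 3.0 Gy was 0.39 and did not pass (adjusted p = 0.0893). In the genes' own fits at 3.0 Gy, Fcgr4 and Fcgr2b passed in opposite directions, and Fcgr3 and Fcgr1 did not pass.

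**Figure D4:**
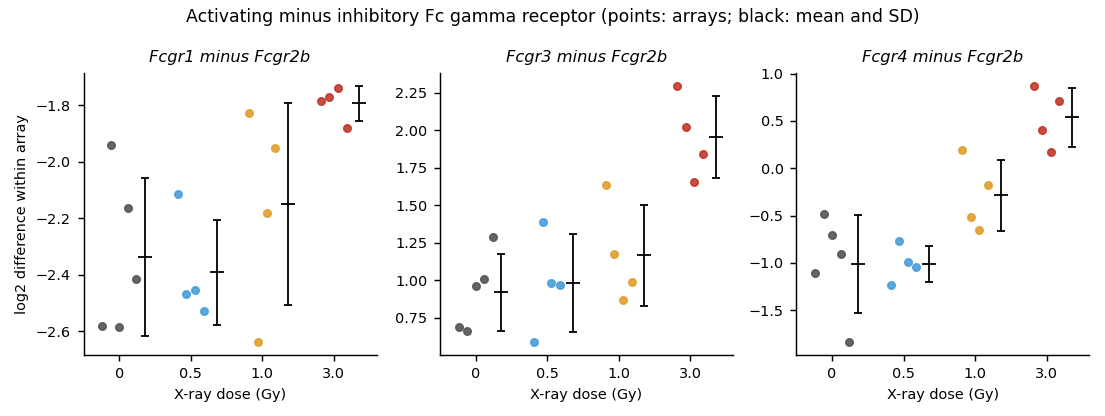
Log2 level of Fcgr1, Fcgr3 or Fcgr4 minus that of Fcgr2b within each array (vertical axis, a different range in each panel) by X-ray dose in Gy; points are arrays, black marks are mean and SD. At 3.0 Gy all 4 arrays lie above all controls in each panel, with means 0.54, 1.03 and 1.55 above the control means.

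Fcgrt, the neonatal receptor that recycles IgG and albumin, fell by a small amount. Its level was 4.90, 5.15, 5.27, 4.88 and 5.003 in controls and 4.72, 4.72, 4.68 and 4.92 at 0.5 Gy. It was 4.70, 4.71, 4.33 and 4.69 at 1.0 Gy and 4.62, 4.72, 4.72 and 4.21 at 3.0 Gy. The mice at 1.0 and 3.0 Gy all lay below all controls, and 0.5 Gy replicate 4 alone of the lowest dose reached the control range. The change was -0.28 ± 0.13 at 0.5 Gy (adjusted p = 0.196, limma), -0.43 ± 0.13 at 1.0 Gy (adjusted p = 0.0216) and -0.47 ± 0.13 at 3.0 Gy (adjusted p = 0.00448), or 1.39-fold lower at 3.0 Gy. The call at 1.0 Gy ended without control replicate 3 (-0.38, adjusted p = 0.0627) or 1.0 Gy replicate 3 (-0.34, adjusted p = 0.0771), and with 18S as a covariate (-0.44, adjusted p = 0.605). Of 6 tested genes of its partners and of the recycling route, 0, 2 and 3 rose and 0, 0 and 1 fell at the 3 doses, with a median of 0.28 at 3.0 Gy (limma; 1 at an unadjusted p under 0.05 at 0.5 Gy). B2m, the beta-2 microglobulin that the receptor needs, went the other way from Fcgrt, with changes of 0.31 ± 0.16 (adjusted p = 0.274), 0.50 ± 0.16 (adjusted p = 0.0379) and 0.64 ± 0.16 (adjusted p = 0.00277). Its change at 1.0 Gy was 0.16 in the 18S fit (adjusted p = 0.918), where 0 of the 6 genes were called at the lower doses. Rab11a, a small GTPase of recycling endosomes, rose by 1.48 ± 0.22 at 3.0 Gy and its effector Rab11fip1 by 0.38 ± 0.12. Snx4, a sorting nexin, fell by 0.86 at 3.0 Gy (adjusted p = 0.000813).

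In numbers of genes whose arrays did not overlap, 1, 1 and 2 members lay wholly above control at 0.5, 1.0 and 3.0 Gy, where 6.66%, 7.88% and 14.2% of all genes tested did. Wholly below control lay 0, 1 and 2 members, where 4.54%, 6.38% and 22.9% of all genes did. Between doses, 0 members were called from 0.5 to 1.0 Gy (2 at an unadjusted p under 0.05, limma), where 0% of genes were called higher and 0.0158% lower. From 1.0 to 3.0 Gy 1 member rose, Fcer1g, against 15.9% of genes higher and 22.7% lower. From 0.5 to 3.0 Gy 3 members rose, Fcer1g, Fcgr4 and Fcgr3, against 12.9% higher and 20.9% lower. In the order of doses, Fcer1g thus differed by the test between control and 0.5 Gy and between 1.0 and 3.0 Gy, and in the other 5 members 0 pairs of neighbouring doses did.

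Fcer1a, the IgE-binding chain, was not measured above the dim range of the array in any mouse. Its level was 2.37, 2.04, 2.85, 3.08 and 2.70 in controls and lay between 2.0005 and 2.55 at 0.5 Gy, between 2.06 and 2.37 at 1.0 Gy and between 2.10 and 2.30 at 3.0 Gy. The highest 3 of the 17 values were in controls, and the groups overlapped. In a fit without the filter on dim probe sets (18193 genes, limma) the change was -0.26 ± 0.17 (adjusted p = 0.472), -0.39 ± 0.17 (adjusted p = 0.152) and -0.39 ± 0.17 (adjusted p = 0.0652). Of 10 basophil and mast cell genes on the array 5 passed the filter. Ms4a2, the other subunit of the IgE receptor, did not, with group means between 3.11 and 3.22. Mcpt8, a basophil protease gene, passed with group means between 3.92 and 4.12. Of the 5, 0 changed at the lower doses by limma (0 at an unadjusted p under 0.05), and Ifitm1 rose at 3.0 Gy by 1.70 ± 0.34 (adjusted p = 0.000406). Ifitm1 is an interferon-induced gene that other blood cells also express.

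The promoters of the members differ in motifs for factors that control Fc receptor genes, and those of Fcer1g, Fcgr4 and Fcgr2b, which were called at 3.0 Gy, and of Fcgr1, which was not, are shown for comparison. Sequences are from RefSeq (GRCm38.p6), from 250 bases before to 50 bases after the annotated start of the gene, written on the gene's strand, and all 7 members had an entry (8 in all, since Fcgr3 has a pair of starts). Capitals mark the motifs searched on both strands: GAGGAA, the core bound by the myeloid factor PU.1, and GAAANNGAA, the core of the interferon-stimulated response element. Over all 32851 promoters of the same length, 28.3% hold GAGGAA and 8.56% hold GAAANNGAA, so single matches are common.
Fcgr1 (chr3:96293920-96294219, minus strand): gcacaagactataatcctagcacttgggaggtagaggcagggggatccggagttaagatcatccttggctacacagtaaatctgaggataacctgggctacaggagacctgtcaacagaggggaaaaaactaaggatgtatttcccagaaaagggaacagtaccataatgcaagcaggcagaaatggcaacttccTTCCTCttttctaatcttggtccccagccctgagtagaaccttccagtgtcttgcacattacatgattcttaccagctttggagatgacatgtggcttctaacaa
Fcgr4 (chr1:171018676-171018975, plus strand): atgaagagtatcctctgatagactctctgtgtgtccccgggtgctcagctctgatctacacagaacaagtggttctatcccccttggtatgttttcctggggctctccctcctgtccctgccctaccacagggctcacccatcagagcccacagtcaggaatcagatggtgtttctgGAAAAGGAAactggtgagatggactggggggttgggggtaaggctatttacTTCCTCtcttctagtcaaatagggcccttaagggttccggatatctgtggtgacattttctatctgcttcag
Fcgr2b (chr1:170976022-170976321, minus strand): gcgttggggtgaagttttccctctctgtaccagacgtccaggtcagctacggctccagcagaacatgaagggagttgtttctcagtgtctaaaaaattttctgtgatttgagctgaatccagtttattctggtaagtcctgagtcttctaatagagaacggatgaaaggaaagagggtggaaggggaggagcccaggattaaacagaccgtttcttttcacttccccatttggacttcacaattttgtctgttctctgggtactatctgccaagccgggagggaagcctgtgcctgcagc
Fcer1g (chr1:171234300-171234599, minus strand): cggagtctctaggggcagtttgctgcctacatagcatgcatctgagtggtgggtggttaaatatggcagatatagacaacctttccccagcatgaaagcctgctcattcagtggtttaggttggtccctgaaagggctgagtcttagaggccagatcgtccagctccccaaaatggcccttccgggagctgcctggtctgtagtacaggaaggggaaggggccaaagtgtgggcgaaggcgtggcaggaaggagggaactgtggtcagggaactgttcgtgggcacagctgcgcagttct

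Fcgr1 held the PU.1 core on the opposite strand, beginning 55 bases before the start. Fcgr4 held GAAAAGGAA, a match to the response element core, beginning 73 bases before the start, and the PU.1 core on the opposite strand 22 bases before it. The PU.1 core also occurred in Fcgr3, at both starts, and in Fcer1a. Neither motif occurred in the windows of Fcer1g, Fcgr2b or Fcgrt. The motif of interferon gamma targets, the gamma-activated site, was not among those searched. Lower-case letters therefore do not show that a window lacks it, that of Fcgr1 included. A match is a description of letters and shows no binding.

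Downstream of the receptors, the 25 tested genes of Fc receptor signalling moved in both directions. Of these 6, 10 and 7 rose and 1, 1 and 6 fell at 0.5, 1.0 and 3.0 Gy, with a median of 0.07 at 3.0 Gy against 0.04 for all genes. Over all genes tested, 5.24%, 8.8% and 20% were called higher at these doses and 5%, 8.49% and 29.2% lower. Ptpn11, the phosphatase SHP2, rose by 1.34 ± 0.17, 1.65 ± 0.17 and 1.75 ± 0.17 (adjusted p = 3.61e-05, 1.12e-06 and 1.73e-07, limma). Itpr2, a calcium channel of internal stores, rose by 1.20 ± 0.19, 1.60 ± 0.19 and 1.76 ± 0.19, and the kinase gene Src by 0.64 ± 0.13, 0.61 ± 0.13 and 0.96 ± 0.13. Lat2, an adaptor of B cells and myeloid cells, fell at every dose, by 0.48, 0.61 and 1.05 (adjusted p = 0.0199, 0.00208 and 1.96e-06). The 18S fit called 2 of the 25 higher at 0.5 and at 1.0 Gy, Ptpn11 and Itpr2, and 0 and 1 lower. In it Lat2 fell at 1.0 Gy (-1.15, adjusted p = 0.0407) and had -0.91 at 0.5 Gy (adjusted p = 0.0523). Src did not pass there (0.54 and 0.47, adjusted p = 0.370 and 0.585). Besides Lat2, the genes that fell at 3.0 Gy were Btk, Plcg1, Plcg2, Ptpn6 and Sos1. Syk, the kinase that binds the gamma chain, did not pass at any dose (0.17, 0.30 and -0.19, adjusted p = 0.662, 0.295 and 0.387). Inpp5d, the gene of SHIP, rose by 0.64 and 0.75 at 0.5 and 1.0 Gy (adjusted p = 0.0263 and 0.00553, limma). At 3.0 Gy it did not pass (0.30, adjusted p = 0.165). In the 18S fit Inpp5d did not pass at the lower doses (1.20 and 1.46, adjusted p = 0.0663 and 0.0620).

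Fcer1g also serves receptors that bind no antibody. Of 8 such receptor genes tested, 1, 1 and 3 rose and 0 fell at the 3 doses, with a median of 0.31 at 3.0 Gy. Gp6, the collagen receptor of platelets, rose at all doses, by 1.02 ± 0.23, 1.27 ± 0.23 and 1.81 ± 0.23 (adjusted p = 0.00771, 0.000612 and 3.79e-06, limma). Its changes at the lower doses were 1.02 and 1.27 in the 18S fit and did not pass (adjusted p = 0.326 and 0.318). Clec4d and Clec4e, receptors of myeloid cells for microbial glycolipids, rose at 3.0 Gy by 1.48 ± 0.17 (adjusted p = 1.1e-06) and 0.71 ± 0.22 (adjusted p = 0.0108). Gp6 is also in the platelet list and Clec4d in the neutrophil list.

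Of 3 other adaptor genes of activating receptors, 0 rose at any dose and 1 fell at each. The shares of all genes tested were 5.24%, 8.8% and 20% higher and 5%, 8.49% and 29.2% lower at the 3 doses. Tyrobp, the adaptor DAP12, changed by -0.60 ± 0.23, -0.42 ± 0.23 and 0.24 ± 0.23 (adjusted p = 0.120, 0.252 and 0.391, limma). Hcst, the adaptor DAP10, fell at the lower doses, by 0.50 and 0.46 (adjusted p = 0.0218 and 0.0212), and changed by -0.01 at 3.0 Gy. In the 18S fit these changes were -0.71 and -0.74 and did not pass (adjusted p = 0.199 and 0.300). Cd247, the zeta chain of the T cell receptor, fell by 2.04 at 3.0 Gy (adjusted p = 7.34e-07), and it is also counted in the T cell list.

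Of 20 tested genes of the phagocytosis machinery, 2, 6 and 5 rose and 1, 0 and 7 fell at the 3 doses, with a median of -0.16 at 3.0 Gy. At 0.5 and 1.0 Gy the 18S fit called 0 and 1 higher and 0 lower. Rac1, a small GTPase of actin assembly, rose by 1.44 ± 0.15 at 3.0 Gy (adjusted p = 3.09e-07, limma) and Pla2g4a, a phospholipase, by 2.23 ± 0.28 (adjusted p = 2.37e-06). Coro1a, an actin-binding protein of leukocytes, fell by 1.62 (adjusted p = 2.04e-05) and Myo1g, a myosin of lymphocytes, by 1.36 (adjusted p = 2.1e-05). Both the signalling and the uptake genes thus had calls in each direction at 3.0 Gy. Over all genes tested, 20% were called higher and 29.2% lower at that dose, so calls in both directions are common.

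Most tested Fc and Fc-like receptors outside the 7 members fell at 3.0 Gy. Of 10 on the array 7 were tested by limma, and of these 0 passed at 0.5 or 1.0 Gy (1 and 3 at an unadjusted p under 0.05) and 5 fell at 3.0 Gy, with a median of -2.21. In the 18S fit 1 fell at each lower dose. Fcmr, the receptor for IgM, fell by 3.64 (adjusted p = 3.54e-08, limma). Fcrla changed by -3.07 (adjusted p = 7.74e-08), Fcer2a, the low-affinity IgE receptor of B cells, by -2.87 (adjusted p = 1.37e-08) and Fcrl1 by -2.21 (adjusted p = 9.39e-08). Trim21, a receptor for antibody inside cells, fell by 0.54 (adjusted p = 0.00668). Fcgbp and Fcamr did not pass (0.18 and 0.04, adjusted p = 0.147 and 0.792). Fcer2a is also counted in the B cell list. At 3.0 Gy the changes of Fcmr, Fcrla, Fcer2a and Fcrl1 were larger in size than that of any Fcgr2b probe set, a difference that was not tested.

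Markers of the cell types that carry these receptors moved in the same arrays. At 3.0 Gy 11 of 13 mature neutrophil genes rose and 0 fell (median 1.13), and the mean level of the list ran from 6.81 to 7.35 in controls and from 7.69 to 8.59 at 3.0 Gy. Of 18 monocyte genes 0 rose and 10 fell (median -0.42), among them Ccr2 (-1.52 ± 0.19) and Spn (-1.23 ± 0.23), and the list's mean ran from 6.57 to 6.88 in controls and from 6.05 to 6.66 at 3.0 Gy. Of 14 B cell genes 0 rose and 13 fell (median -2.45), and the list's mean ran from 7.35 to 8.02 in controls and from 4.84 to 6.04 at 3.0 Gy. Fcgr4 and Fcer1g thus rose in arrays with higher neutrophil and lower monocyte marker levels, and Fcgr2b fell in arrays with lower B cell marker levels. At 0.5 and 1.0 Gy 1 and 2 neutrophil genes rose and 1 and 2 fell, 1 and 2 monocyte genes rose and 3 and 1 fell, and 1 B cell gene fell at each dose. The 18S fit called 1 monocyte gene higher at each of these doses and 0 neutrophil or B cell genes. The part of these markers in the members' changes was not tested.

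**Figure D5:**
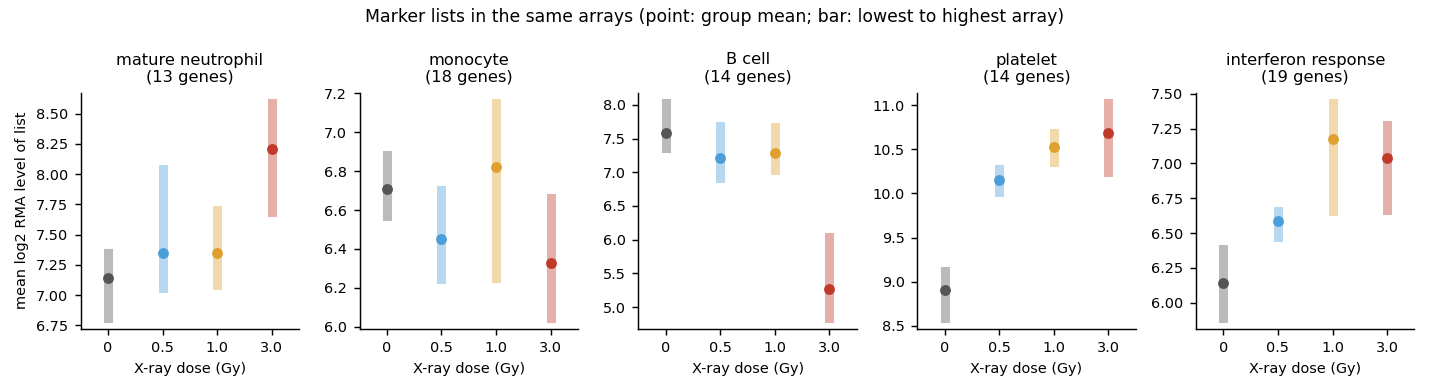
Mean log2 RMA level over the tested genes of 5 marker lists (vertical axis, a different range in each panel) by X-ray dose in Gy; points are group means, bars run from the lowest to the highest array. The B cell list drops and the neutrophil list rises at 3.0 Gy, while the platelet list is already higher at 0.5 Gy.

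Platelet genes, like Fcer1g, rose at every dose. All 14 tested rose at each, with medians of 1.04, 1.502 and 1.89, and the list's mean level was 8.90 ± 0.23, 10.16 ± 0.11, 10.53 ± 0.16 and 10.68 ± 0.36. Of the 14, 6 rose at 0.5 Gy and 6 at 1.0 Gy in the 18S fit, with medians of 1.14 and 1.67. The neutrophil list had means of 7.14 ± 0.22, 7.35 ± 0.47, 7.35 ± 0.29 and 8.21 ± 0.38. Of 10 NK cell genes tested by limma 0, 1 and 0 rose and 0, 1 and 2 fell (2 at an unadjusted p under 0.05 at 0.5 Gy). Of 6 dendritic cell genes 0, 0 and 1 fell by limma (1 and 0 at an unadjusted p under 0.05 at the lower doses). Of 13 T cell genes 0 rose at any dose, and 2, 3 and 10 fell. Of 6 red cell genes 2, 3 and 4 fell and 0 rose. At the lower doses 0 NK or T cell genes were called in the 18S fit, and 0 and 1 red cell genes fell. In the eosinophil list 1 gene could be tested and 0 changed by limma (0 at an unadjusted p under 0.05).

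By a fixed rule, the 3 genes whose levels followed each member most closely over the 17 arrays were listed, by Pearson's r, as a description of arrays that share dose groups. For Fcer1g they were Sh3bgrl3 (r = 0.996), Prr13 (r = 0.988) and Bin1 (r = 0.982), and Sh3bgrl3 changed by 0.43, 0.88 and 1.25 at the 3 doses. After each group's mean was subtracted, r with Sh3bgrl3 was 0.968 over all 17 arrays together. The SD of Fcer1g was 0.42 at 3.0 Gy and 0.16, 0.06 and 0.10 in controls and at 0.5 and 1.0 Gy. This r therefore rests mostly on the 3.0 Gy mice and does not show the order within each group. For Fcgr4 they were 1600014C10Rik (r = 0.956), Cd300ld (r = 0.911) and Trem1 (r = 0.887), the last an activating receptor of neutrophils that is in the neutrophil list. For Fcgr3 they were Slpi, a protease inhibitor (r = 0.947, and 0.943 within groups), Rab31 (r = 0.936) and Rab32 (r = 0.916). Fcgr2b was followed by Slc1a5, a glutamine transporter (r = 0.906), Ddost (r = 0.905) and Lancl1 (r = 0.902). For Fcgrt the closest were Tdp1 (r = 0.854), Nudt16 (r = 0.850) and Impdh1 (r = 0.832), and for the dim Fcgr1 they were Arf2 (r = 0.742), Stk19 (r = 0.681) and 1700073E17Rik (r = 0.674). The 6 members shared none of these companions.

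The genes Fcgr2b, Fcgr4, Fcgr3 and Fcer1g lie near each other on chromosome 1 in the RefSeq annotation, in that order, while Fcer1a lies elsewhere on chromosome 1, Fcgr1 on chromosome 3 and Fcgrt on chromosome 7. Between Fcgr3 and Fcer1g lie 7 other protein-coding genes, of which 6 are on the array and 5 were tested. These neighbours were looked at after the members' values were known. At 3.0 Gy 1 rose, Pcp4l1 (1.76 ± 0.22, adjusted p = 2.22e-06, limma), 1 fell, Tomm40l (-0.45 ± 0.12, adjusted p = 0.00579), and Cfap126, Sdhc and Apoa2 did not pass. On the other side of Fcgr2b, Fcrla had the change of -3.07 given above. Genes of this cluster therefore moved in opposite directions, Fcgr2b and Fcrla down and Fcgr4 and Fcer1g up.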

How the data were processed

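RNA of whole blood from 17 mice was read on 1 Affymetrix array per mouse. Log2 values of 45101 probe sets are as the authors deposited them, and the submitters' notes on processing list RMA (robust multi-array average) and R 3.3.2. RMA makes the arrays' distributions alike, so a change of most genes one way is partly removed, and changes of dim genes are understated. No source used here gives the RMA settings or a genome build. Platform annotation named 34945 probe sets with 1 gene symbol, 932 with several and 9160 with none, besides 64 control probe sets. Updating symbols changed 0 of them.

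Each gene was read by its single-symbol probe set with the highest mean. A gene was kept when that set lay above its array's 50th percentile in at least 4 arrays. The 4 group means were fitted to all 17 arrays with limma 3.58.1 (lmFit, eBayes) in R 4.3.3, tested first on simulated data. Tests are two-sided. Within-array differences were compared by exact permutation. The members and the gene lists were chosen with earlier results of these data known. Named were all members and their probe sets, from each list up to 4 genes called at any dose (smallest p at 3.0 Gy), and for each member the 3 genes with the highest r. Other genes named (Syk, Inpp5d, Tyrobp, Hcst, Trim21, Fcgbp, Fcamr, Ms4a2, Mcpt8, the genes listed only by name and the chromosomal neighbours) were chosen after their values were seen. Labels call the samples biological replicates, and the number of arrays limits the precision. Alternatives covered the probe set, filter, normalization, variance model, arrays in the fit, replicate block, 18S level and each array left out.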

Additional observations from a re-analysis of the deposited data

Results flagged for a closer look

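In 40 groups of 4 or 5 arrays, the highest or lowest array was compared with the others by Dixon's criterion, which chance meets in about 1 in 20 groups. Each group was formed by a member's probe set, or by an activating receptor minus Fcgr2b, at 1 dose. The groups are therefore not all independent. The criterion was met 2 times, both for Fcgrt. At 0.5 Gy replicate 4 had the highest level, 4.925, with the nearest of the other 3 at 4.7167, so that the gap was 0.860 of the range. At 1.0 Gy replicate 3 had the lowest level, 4.3259, with the nearest at 4.6867 and a gap of 0.943 of the range. Without 1.0 Gy replicate 3 the change of Fcgrt at 1.0 Gy was -0.34 and did not pass (adjusted p = 0.0771, limma).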

How the results depend on the processing

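The count of 4 members called at 3.0 Gy against control was 4 or 5 under each alternative that gives such a count. Of the called changes 1 turned its direction: Fcgr2b at 3.0 Gy was 0.32 (adjusted p = 0.0240, limma) when read by the dim probe set 1447622_at alone. The single call at 0.5 Gy, Fcer1g, became 0 without the filter on dim probe sets (adjusted p = 0.050005), with median centring, with a variance trend, with the replicate block and with the 18S level as a covariate, and leaving out single arrays gave 0 to 1. At 1.0 Gy the 2 calls became 0 with the 18S level, and single arrays left out gave 1 to 3. Between 3.0 and 1.0 Gy the 1 call became 2 with the mean of all probe sets, 3 after repeated quantile normalization, 2 with the replicate block, and 0 with median centring, with only the 2 groups compared or with the 18S level, and single arrays left out gave 0 to 1. Between 3.0 and 0.5 Gy the 3 calls became 0 with the 18S level. The cause of these changes was not tested, except that the 18S level nearly coincides with the lower doses, so that its fit has larger errors. With the 18S level, 557, 606 and 6277 of 12696 genes were called at the 3 doses, against 1300, 2195 and 6237 without it.

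Fcgr1 minus Fcgr2b at 3.0 Gy was 0.39 after repeated quantile normalization, and Fcgr3 minus Fcgr2b at 1.0 Gy was 0.45 against the probe set 1435477_s_at, an alternative added after the data were seen. Leaving out 1 array gave 0.48 to 0.64 for Fcgr1, 0.92 to 1.13 for Fcgr3 and 1.34 to 1.68 for Fcgr4 at 3.0 Gy, with adjusted p from 0.0643 to 0.107, since fewer regroupings are then possible.

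The replicate numbers were not taken as pairing the mice, since the labels tie them to no shared litter or day and the correlation of deviations was over 0.1 in 11 of 24 pairs of same-numbered arrays, not in all. Over these pairs it ran from -0.45 to 0.49 with a median of 0.07, against a median of -0.03 for arrays of different numbers, and 7 of 16 arrays correlated best with their own number. With the replicate block 1208, 2032 and 6341 genes were called at the 3 doses, and 0, 2 and 5 members, the fifth being Fcgr3 (0.62, adjusted p = 0.0232). Number 5 occurs only among controls, so the block takes that array out of the comparison. The Fcgr3 change with the block was the same as without control replicate 5.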
